A study of Homo sapiens with 2 samples.

Results

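The DEAD-box and DEAH-box RNA helicases were read in Panc1 cells, a long-used line from a human pancreatic carcinoma. Members were the genes whose symbol in the array annotation starts with DDX or DHX and a digit, without the Y-linked one. They came to 55 genes with 121 transcript rows, of 23595 genes and 45033 rows in all. There were 39 DDX and 16 DHX genes. Total RNA was taken after 24 h of pretreatment, either with DMSO as the control or with clofibrate, a lipid-lowering fibrate and agonist of PPARalpha. Both groups were the same line in the same medium, and the clofibrate dose is not given in the sources used here. Each group was 1 array, so there is no replicate spread and no test, precision is set by that number, and an effect of treatment cannot be told apart from a difference between cultures. In such bulk RNA, fewer cells of a type and less RNA per cell cannot be told apart either.

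DEAD-box and DEAH-box proteins are ATP-driven motor enzymes named for the amino acids of a motif that takes part in ATP hydrolysis. DEAD-box proteins mostly pry short RNA duplexes apart locally or clamp onto RNA, while DEAH-box proteins move along a strand. Between them they drive the steps of splicing, the maturation of ribosomal RNA, the export, translation and decay of mRNA, and the sensing of viral RNA, and in fast-growing cancer cells the ribosome and splicing factors are in steady demand.

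Values are log2 intensities, and differences are clofibrate minus DMSO on that scale. The level of a gene was the mean of its transcript rows, each a summary of 3 probes. Probes differ in how brightly they bind, so levels are compared only between arrays for the same gene. Random-sequence probes gave 5.61 (DMSO) and 5.59 (clofibrate). A gene is called bright if its mean of both arrays reached the all-gene median of 8.51. There were 11798 bright genes, and 48 of the 55 members were among them. For scale, each difference is set beside the SD among genes of like level, which was 0.21 to 0.33 for bright members. Of the line's epithelial markers, KRT8 read 9.64 on both arrays and KRT18 read 9.41 and 9.51. KRT19 read 5.65 and 5.12, near the random probes, and KRT7 and EPCAM were below the bright set. The leukocyte markers PTPRC (5.35 and 5.30) and CD3E (5.14 and 5.42) and the hepatocyte marker ALB (5.20 and 5.21) read below the random probes on both arrays. The leukocyte marker CD14 (6.86 on both arrays) and the hepatocyte marker APOA2 (6.78 and 6.72) read above them. Of the leukocyte, hepatocyte, islet, acinar, fibroblast and endothelial markers read, COL1A1 alone was bright (9.93 and 9.84).

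As a family these genes read slightly lower with clofibrate. Of the 48 bright members, 30 lay below 0 and 18 above, a share of 62.5% below 0 against 47.9% of all bright genes. Their median difference was -0.12, against 0.01 over all bright genes, and the middle of the family ran from -0.20 to 0.08. Large differences were few: 1 member was at least 1.5-fold lower (2.08%, against 1.32% of bright genes) and 0 were at least 1.5-fold higher (against 1.31%). At 2-fold the count was 0 in both directions, against 0.11% of bright genes lower and 0.136% higher. Over all 55 members, dim ones included, 1 was at least 1.5-fold lower (4.62% of all genes were). At the milder bound of 1.25-fold, 7 members were lower (14.6%, against 9.39%) and 2 were higher (4.17%, against 9.32%). Lower values by more than 2 SD of genes of like level were found for 5 members (10.4%, against 2.3%), and higher ones for 0 (against 2.19%). The 1.25-fold and 2 SD bounds were chosen after the values were seen.

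**Figure D1:**
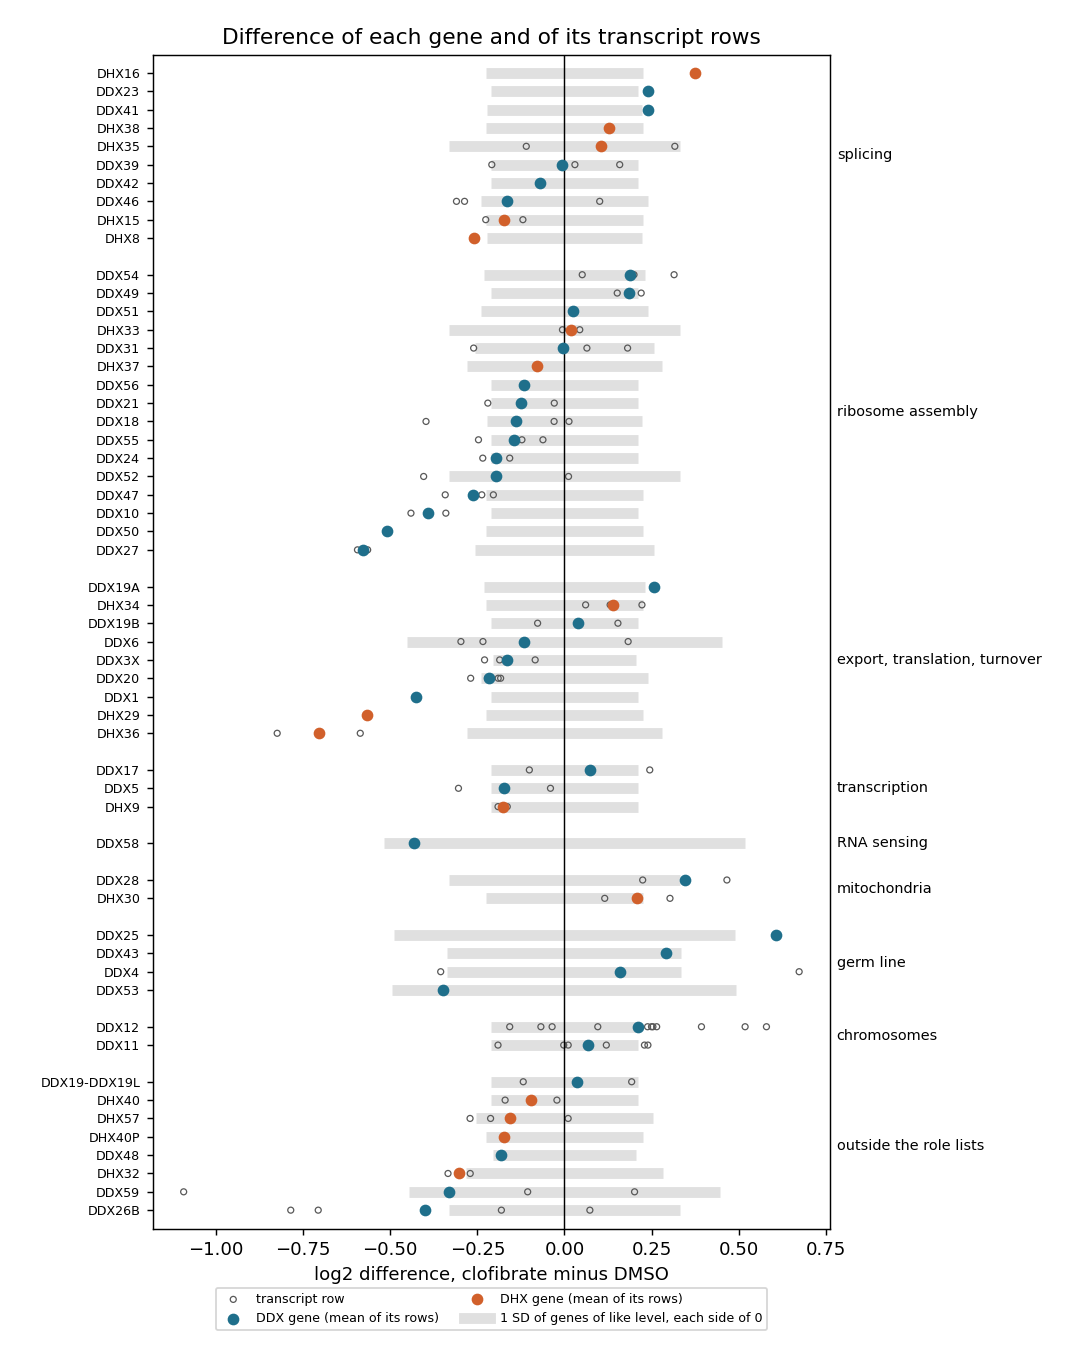
Log2 difference, clofibrate minus DMSO (x axis), of all 55 genes grouped by role. Filled points are genes (mean of their rows, DDX blue and DHX orange), open points are single transcript rows, and grey bars span 1 SD of genes of like level on each side of 0. DHX36, DDX27, DHX29, DDX50 and DDX1 lie furthest to the left beyond their bars, while DHX16 (0.37) is the bright gene furthest to the right.

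The 6 lowest bright members were DHX36, DDX27, DHX29, DDX50, DDX1 and DDX26B. DHX36, which unfolds G-quadruplexes in RNA and DNA, read 9.96 on the DMSO array and 9.25 after clofibrate. The difference of -0.70, or 1.63-fold lower, was the only one past 1.5-fold among bright members. Both of its transcript rows were lower with clofibrate: the brighter one (NM_020865, hg18 chromosome 3, 155476151 to 155524971) went from 11.10 to 10.51, and the dimmer one from 8.81 to 7.99. DDX27, a nucleolar helicase needed to process ribosomal RNA, read 9.77 and 9.19, a difference of -0.58. Its 2 rows were nearly alike at -0.56 and -0.59, so the gene stood just short of 1.5-fold. DHX29, which sits on the small ribosomal subunit and helps it scan structured leaders of mRNAs, read 11.27 and 10.70 on its only row, a difference of -0.57. DDX50, a nucleolar paralogue of DDX21, read 11.43 and 10.92, a difference of -0.51 that also rests on 1 row. DDX1, a member of the tRNA ligase complex, read 11.87 and 11.44, a difference of -0.43 on 1 row. In these 5 genes the difference was more than 2 SD of genes of like level. DDX26B, now named INTS6L, is a paralogue of an Integrator subunit. It read 8.88 and 8.48, a difference of -0.40, but its 4 rows lay on both sides of 0. The lowest of them went from 8.54 to 7.755 (-0.785) and the highest from 8.83 to 8.90 (0.07).

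At the other end the bright members furthest above 0 were DHX16, DDX28, DDX19A, DDX23, DDX41 and DDX12. DHX16, which readies the spliceosome for the first cut, read 10.81 in control cells and 11.18 after clofibrate, which is 0.37 or 1.30-fold higher (1 row, hg18 chromosome 6, 30728885 to 30748736). DDX28, which helps to build the large subunit of the mitochondrial ribosome, read 8.55 and 8.89, a difference of 0.35 with both rows above 0. DDX19A, a paralogue of the helicase that strips proteins from mRNA at the nuclear pore, read 10.56 and 10.81, a difference of 0.26. None of these 3 reached 2 SD of genes of like level (0.22, 0.33 and 0.23). DDX23, the U5 snRNP helicase, differed by 0.24 (12.17 and 12.41), and DDX41, a spliceosome helicase, also by 0.24 (10.76 and 10.997). DDX12 is annotated by RefSeq as a pseudogene. Its mean difference was 0.21, but its 11 rows lay on both sides of 0. The brightest went from 13.88 to 13.73 (-0.16), and the one furthest above 0 from 10.42 to 11.003 (0.58).

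To show the control regions of both ends, the 250 bases before the RefSeq start (GRCh38.p14, written 5′ to 3′ on the gene's strand) follow for the 3 lowest and the 3 highest bright members. Capitals mark matches, on either strand, to 8 short motifs: the DR1 repeat that PPARalpha and RXR bind, the NRF1 palindrome, CCGGAAGT for ETS factors, AAGATGGC for YY1, TGACGTCA for CREB and ATF proteins, and short boxes. The box of SP1 is GGGCGG, a common element of promoters that are rich in G and C. The box that the factor NF-Y binds is CCAAT. The core promoter element bound by TBP was searched as TATAAA. None of these motifs contains another. The windows are chr3:154324488-154324737 (minus strand) for DHX36, chr20:49219166-49219415 (plus) for DDX27, chr5:55307695-55307944 (minus) for DHX29, chr6:30673007-30673256 (minus) for DHX16, chr16:68023233-68023482 (minus) for DDX28 and chr16:70346653-70346902 (plus) for DDX19A.
DHX36: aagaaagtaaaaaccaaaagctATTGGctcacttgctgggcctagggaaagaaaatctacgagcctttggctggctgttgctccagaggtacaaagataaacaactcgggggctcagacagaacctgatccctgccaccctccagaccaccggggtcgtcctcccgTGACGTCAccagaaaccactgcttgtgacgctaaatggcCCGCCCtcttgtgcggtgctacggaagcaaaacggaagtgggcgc
DDX27: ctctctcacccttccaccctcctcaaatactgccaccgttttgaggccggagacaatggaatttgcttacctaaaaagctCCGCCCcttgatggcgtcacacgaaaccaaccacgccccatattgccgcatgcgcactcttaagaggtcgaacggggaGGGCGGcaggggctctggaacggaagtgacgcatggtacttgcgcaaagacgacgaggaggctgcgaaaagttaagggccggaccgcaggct
DHX29: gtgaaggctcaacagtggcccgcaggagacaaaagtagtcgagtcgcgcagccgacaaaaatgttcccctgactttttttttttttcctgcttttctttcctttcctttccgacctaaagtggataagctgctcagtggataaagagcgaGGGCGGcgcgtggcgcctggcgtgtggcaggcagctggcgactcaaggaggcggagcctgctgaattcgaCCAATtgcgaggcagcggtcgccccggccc
DHX16: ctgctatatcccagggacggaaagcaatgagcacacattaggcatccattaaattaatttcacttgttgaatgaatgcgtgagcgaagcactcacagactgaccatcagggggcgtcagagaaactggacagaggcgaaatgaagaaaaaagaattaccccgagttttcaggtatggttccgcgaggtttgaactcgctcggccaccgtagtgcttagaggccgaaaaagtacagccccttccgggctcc
DDX28: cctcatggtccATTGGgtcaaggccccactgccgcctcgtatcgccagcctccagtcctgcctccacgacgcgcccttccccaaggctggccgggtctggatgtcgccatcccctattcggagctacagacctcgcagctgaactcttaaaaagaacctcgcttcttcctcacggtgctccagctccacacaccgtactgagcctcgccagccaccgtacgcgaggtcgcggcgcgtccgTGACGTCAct
DDX19A: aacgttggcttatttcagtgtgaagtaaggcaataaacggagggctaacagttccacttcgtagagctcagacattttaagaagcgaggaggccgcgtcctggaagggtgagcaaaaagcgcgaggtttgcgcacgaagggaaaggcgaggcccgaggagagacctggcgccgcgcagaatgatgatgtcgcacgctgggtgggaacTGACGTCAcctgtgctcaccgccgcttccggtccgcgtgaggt

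The TGACGTCA element lay in DHX36, at the low end, and in DDX28 and DDX19A, at the high end. SP1 boxes lay in all 3 of the lowest and in none of the highest, a choice of 6 genes out of the 41 counted next. Of the 48 bright members, 41 had such a window, and the 7 without one were DDX12, DDX18, DDX19-DDX19L, DDX49, DDX52, DHX33 and DHX40P. TGACGTCA was held by 5 of the 41 (12.2%), against 2.03% of 27305 genes with a window and 3.71% of the bright ones. These 5 were DDX10, DDX19A, DDX28, DDX51 and DHX36. CCGGAAGT was held by 7 (17.1%, against 4.13% and 8.74%). SP1 boxes were held by 65.9% of members (46.2% of all genes, 74.1% of bright genes), the NF-Y box by 51.2% (37.0% and 42.2%), the TBP element by 7.32% (13.0% and 8.06%) and the NRF1 motif by 7.32% (6.2% and 12.6%). Of the 27 members with an SP1 box, 19 lay below 0 and 8 above, where 62.5% of all 48 bright members lay below 0. The PPAR repeat was found in 0 of the 41 windows and in 0.022% of those of all genes, and the YY1 motif also in 0 (1.64% of all genes). A match is a string of letters and shows neither binding nor its absence.

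Genes named DDX and genes named DHX had like medians when the rows of a gene were averaged. These classes are symbol prefixes and were not checked against the helicase motif. The median was -0.12 over 32 bright DDX genes and -0.13 over 16 bright DHX genes, and the share below 0 was 62.5% in both (20 of 32 and 10 of 16). The medians differed by 0.01, and the sign of that difference turned under 3 alternatives (loess on level, span trend removed, and 4 gene models left out). With the brightest row of each gene alone the median was -0.08 for DDX and -0.17 for DHX genes, so their distance depends on how rows are combined. The level filter kept all 16 DHX genes and 32 of the 39 DDX genes, and since it reads different probes it does not compare the classes in abundance. Over all 39 DDX genes the median was again -0.12. DHX genes held both the lowest (DHX36) and the highest (DHX16) bright member. At least 1.25-fold lower were 2 of 16 DHX and 5 of 32 DDX genes, against 9.39% of all bright genes. At least 1.25-fold higher was 1 gene of each class, against 9.32% of all bright genes.

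**Figure D2:**
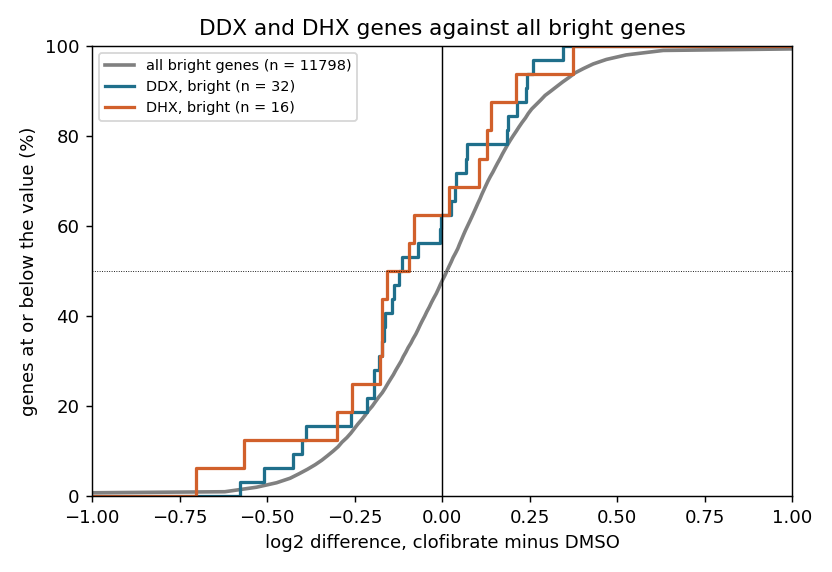
Cumulative share of genes (y axis, percent) at or below each log2 difference, clofibrate minus DMSO (x axis), for 32 bright DDX genes, 16 bright DHX genes and all 11798 bright genes. The DDX and DHX steps cross each other and both lie left of the grey curve through the middle, with medians of -0.12 and -0.13 against 0.01.

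Of 16 helicases of ribosome assembly, all bright, 12 lay below 0 and 4 above, against 47.9% of bright genes below 0. Their median of -0.13 was close to the family's -0.12. At least 1.25-fold lower were 3 of the 16, against 9.39% of bright genes. Beside DDX27 and DDX50, these included DDX10, which acts in the small subunit processome and read 11.85 and 11.46, a difference of -0.39 with both rows below 0. DDX47, a pre-ribosomal RNA processing helicase, read 10.62 and 10.36, a difference of -0.26 with all 3 rows below 0. DDX21, which couples ribosomal RNA synthesis to its processing, read 12.48 and 12.36, a difference of -0.12 that is within the spread of genes of like level. DDX21 and DDX50 lie 9.29 kb apart on chromosome 10. Further members below 0 were DDX52 (-0.20), DDX24 (12.61 and 12.41, -0.20), DDX55 (-0.14), DDX18 (-0.14) and DDX56 (-0.12), which take part in ribosome assembly, and DHX37 (-0.08), which releases the U3 RNA. DDX31 stood just below 0 (-0.0049). Rows lay on both sides of 0 in DDX52 (0.01 and -0.40), DDX18 (-0.40 to 0.01) and DDX31 (-0.26 to 0.18). The brightest row of each of these genes was above 0, so their signs depend on the row. The 4 above 0 were DDX54 (0.19, all 3 rows above 0), DDX49 (0.19, both rows above 0), DDX51 (0.02) and DHX33 (0.02, with the brighter row below 0).

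Spliceosome helicases were split evenly, 5 above 0 and 5 below among 10 bright genes, with a median of 0.05. Of all bright genes 47.9% lay below 0, with a median of 0.01. DHX16 was the only one past 1.25-fold, where 9.32% of bright genes were higher and 9.39% lower by that much. The DEAH-box motors follow one another through the splicing cycle. DHX16, first in that order, was highest, followed in difference by DHX38 (0.13), which acts between the steps. DHX8, which releases the spliced mRNA, read 10.90 and 10.64, a difference of -0.26. DHX15, which takes the spliceosome apart, read 10.43 and 10.26, a difference of -0.17 with both rows below 0. DHX35 was at 0.10 with rows of both signs. Of the DEAD-box members, DDX23 and DDX41 lay above 0, DDX46, which remodels the U2 snRNP, was at -0.17, DDX42 at -0.07 and DDX39 (now DDX39A), an mRNA export and splicing factor, at -0.01. Its paralogue DDX39B is filed as BAT1 and so is not a member. It read 11.96 and 12.19, a difference of 0.23 on 1 row. DDX46 had 1 row near the random probes (5.97 and 6.07), and its 2 bright rows were at -0.29 and -0.31.

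Helicases of mRNA export, translation, turnover and RNP assembly held 3 of the 7 genes that were at least 1.25-fold lower: DHX36, DHX29 and DDX1, which is 3 of its 8 bright members against 9.39% of bright genes. Of the 8, 5 lay below 0, a share of 62.5% as in the whole family and against 47.9% of bright genes, with a median of -0.19. DDX3X, which helps ribosomes start on structured mRNAs, read 12.80 and 12.64, a difference of -0.17. All 4 of its rows were below 0, from -0.23 to -0.08. DDX20, the Gemin3 subunit of the SMN complex, read 10.29 and 10.08, a difference of -0.22 with all 4 rows below 0. Both genes were within 1 SD of genes of like level (0.21 and 0.24). DHX34, a factor of nonsense-mediated decay, read 11.17 and 11.30, a difference of 0.14 with all 3 rows above 0. DDX19B, the mRNA export helicase at the nuclear pore, was at 0.04, and the DDX19-DDX19L model, whose rows overlap DDX19A and DDX19B, was also at 0.04. These paralogues are close in sequence, so their probes may share signal. DDX6, a decapping helicase of P-bodies, was dim: its 3 rows lay below the bright set on both arrays, and their mean went from 7.04 to 6.92, a difference of -0.12. Its rows were of both signs (-0.30, -0.23 and 0.18), and the brightest was the one above 0, so the direction depends on the row.

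Transcription coregulators stayed within the spread of genes of like level. DDX5, which serves RNA polymerase II and microRNA processing, read 12.01 and 11.84, a difference of -0.17. DHX9, RNA helicase A, read 12.67 and 12.50, a difference of -0.18. Both had 2 rows, each below 0. DDX17, the paralogue of DDX5, read 11.68 and 11.75, a difference of 0.07. Its brighter row was at -0.10 and the dimmer one at 0.24, so its sign depends on the row.

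The 2 members listed for mitochondrial RNA both lay above 0, where 47.9% of all bright genes lay below 0. Beside DDX28, DHX30, which takes part in mitochondrial ribosome assembly, read 10.94 and 11.15, a difference of 0.21 with rows at 0.12 and 0.30. Both rows of each gene were above 0. SUPV3L1, a mitochondrial RNA helicase that is not a member, went the other way. It read 11.56 and 11.30, a difference of -0.25 on 1 row. DDX11, a helicase of sister chromatid cohesion, read 12.49 and 12.56, a difference of 0.07 with 6 rows from -0.19 to 0.24. One of these rows is placed on hg18 at 9327512 to 9357101 of chromosome 12, nearer to DDX12 than to the other DDX11 rows at 31118060 to 31148992. DDX11 and DDX12 are near copies and their rows may share signal.

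Sensors of viral RNA were dim on both arrays, apart from 1 row of DDX60L. DDX58, which encodes RIG-I, read 6.85 and 6.42, a difference of -0.43 on 1 row. Genes of that level had an SD of 0.52, so the value is inside their spread. Other sensors carry other symbols in the files and are not members: DHX58 (filed as LGP2) read 6.84 and 6.59, DDX60 (filed as FLJ20035) read 5.66 and 5.57, at the level of the random probes, and IFIH1, which encodes MDA5, read 6.16 and 5.81. Their differences were -0.25, -0.09 and -0.35. DDX60L, a paralogue of DDX60 filed as FLJ31033, had 5 rows from -0.59 to 0.49. The row at -0.59 was the brightest of them and read 8.97 and 8.38.

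Germ-line helicases were all dim. DDX4, the VASA homologue, read 4.83 and 4.99 as the mean of rows that went from 5.01 to 4.66 and from 4.64 to 5.31. Both were below the random probes, and DDX43 read 4.66 and 4.95, also below them on both arrays. DDX53 read 5.87 and 5.52, which is below the random probes with clofibrate only. DDX25, a testis helicase, read 6.0 and 6.61, a difference of 0.61 or 1.52-fold. That is the largest difference above 0 among all 55 members, on 1 dim row at a level where the SD of genes was 0.49. Over all genes, dim ones included, 4.53% were at least 1.5-fold higher.

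**Figure D3:**
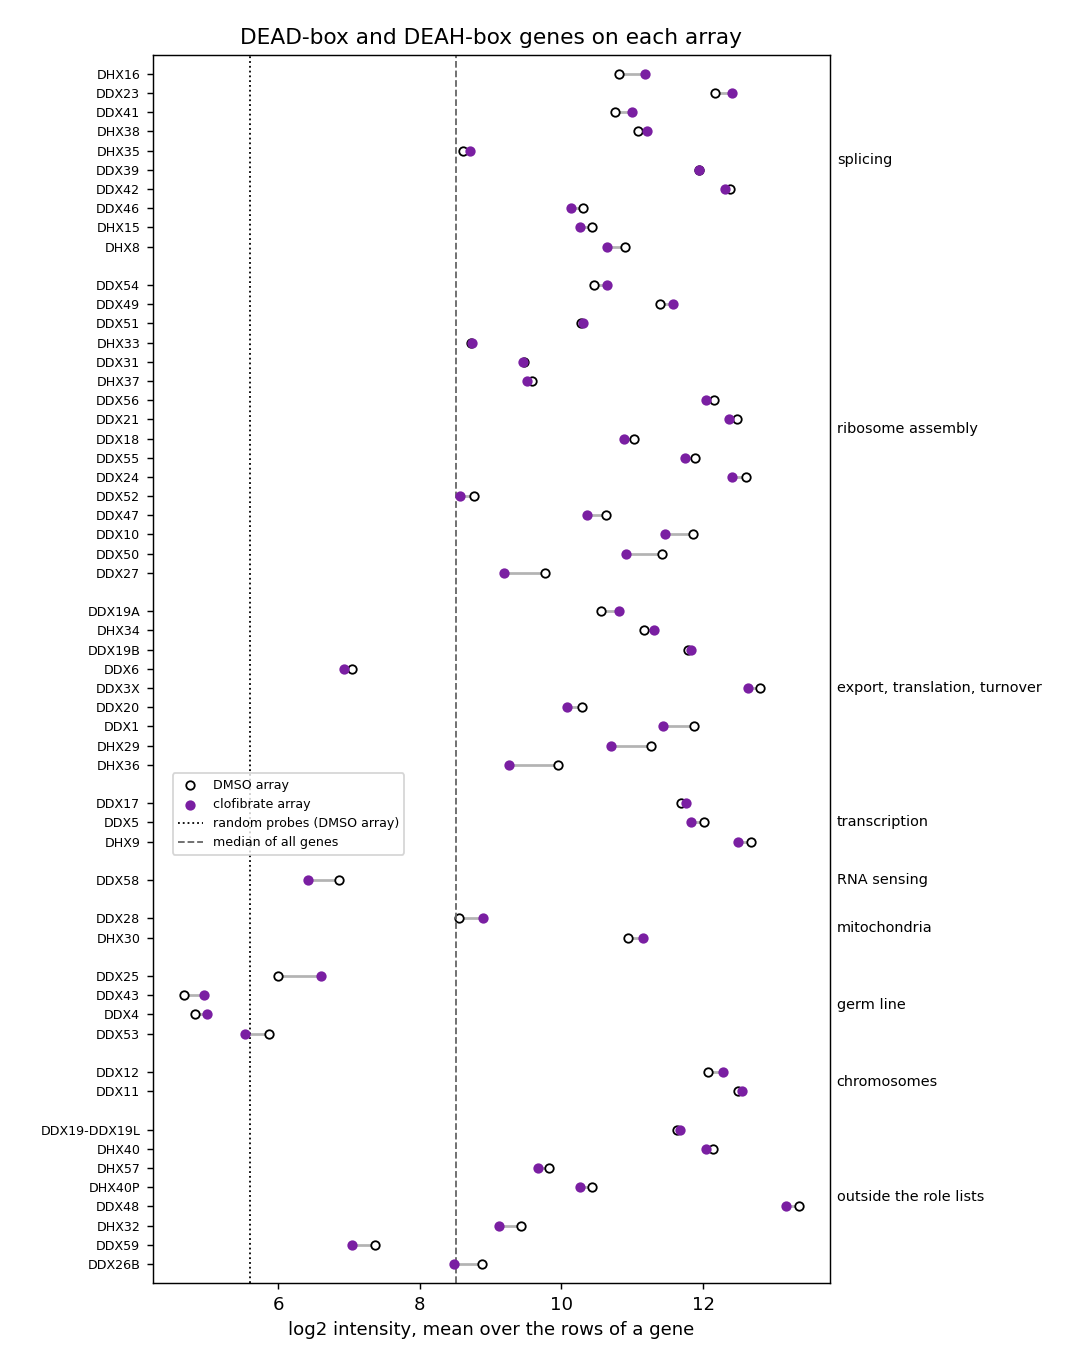
Log2 intensity (x axis) of all 55 genes on the DMSO array (open) and the clofibrate array (filled), mean over the rows of a gene, grouped by role. The dotted line marks the random probes on the DMSO array (5.61) and the dashed line the median of all genes (8.51): DDX4 and DDX43 lie left of the dotted line, DDX53 straddles it, and DDX6, DDX25, DDX58 and DDX59 lie between the lines. Only the gap between the points of 1 gene is comparable, since probes differ.

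Of the 8 members outside the role lists, 7 were bright, and 6 of these lay below 0 (47.9% of all bright genes did). DDX48, now EIF4A3, the clamp of the exon junction complex, read 13.36 and 13.18, a difference of -0.18 within 1 SD of genes of like level. DHX32 differed by -0.30 (rows at -0.27 and -0.33), DHX57 by -0.16, DHX40 by -0.10 and the pseudogene model DHX40P by -0.17. DDX59 was dim at 7.37 and 7.04, and its 3 rows were of both signs. The brightest went from 8.11 to 7.02 (-1.09) and the dimmest from 6.77 to 6.97 (0.20).

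Rows of the same gene can be set beside each other, but they share the same RNA and arrays. Whether they also share probes was not checked. They cannot check a difference between cultures, and their counts by side are not separate from the family's lower values. Of the 33 bright members with more than 1 row, 19 had all rows on 1 side of 0 (57.6%, against 51.0% of such bright genes). All rows lay below 0 in 14 (42.4%, against 24.5%) and above 0 in 5 (15.2%, against 26.5%). The pooled SD of rows within a gene was 0.19 for these members and 0.26 for all such genes. These 2 values are not matched for level: the median level was 11.02 for bright members and 9.98 for all bright genes. Counted as rows, 65 of 109 lay below 0, but rows of a gene are not separate, and DDX12 gives 11 of them and DDX11 6. The 15 bright members with 1 row had 9 below 0 and 6 above. For all bright genes these 2 counts were not made.

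Longer genes tended to read lower with clofibrate across the array, and the family is longer than most. The median hg18 span was 31.0 kb for bright members and 16.9 kb for all bright genes, with 43.9 kb for DHX and 27.4 kb for DDX members. Among the 48 members the difference was lower at longer span (Spearman -0.302 across genes, which share 2 arrays and are not replicates), as it was among all bright genes (Spearman -0.179). Of 38 members longer than the median bright gene, 24 lay below 0, with a median of -0.13. Of all such longer bright genes, 3276 of 5899 lay below 0, with a median of -0.03. The 10 shorter members had 6 below 0 and a median of -0.06, while the shorter bright genes had 2373 of 5899 below 0 and a median of 0.06. With a smooth trend on span removed, the family median was -0.10, that of DDX genes -0.11 and that of DHX genes -0.08. The part of span in the result was otherwise not tested.

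**Figure D4:**
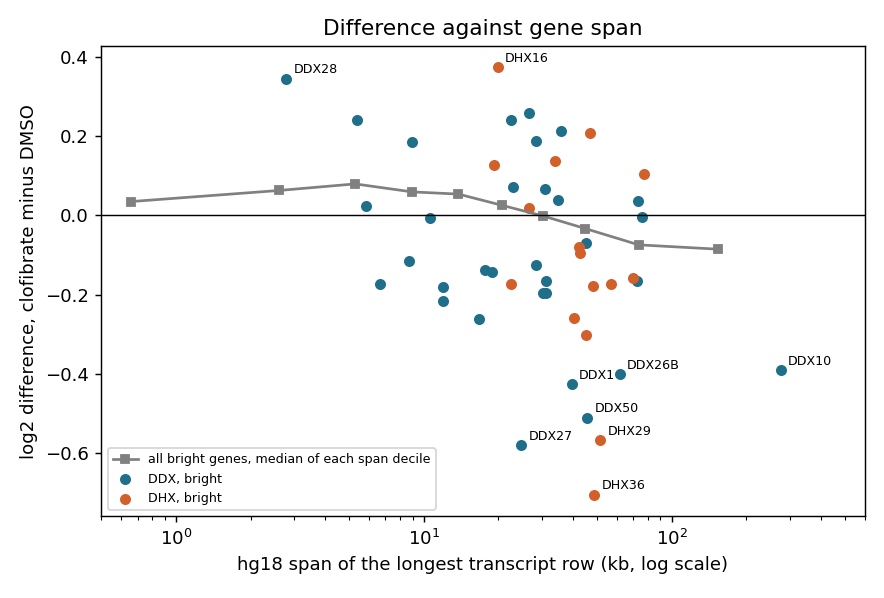
Log2 difference, clofibrate minus DMSO (y axis), against the hg18 span of a gene's longest row (x axis, kb, log scale) for bright DDX and DHX genes, with the median of all bright genes in each of 10 equal bins of span (grey squares). Named genes are at least 1.25-fold different: 6 of the 7 low ones span more than the median member (31.0 kb), and DDX28, the shortest at 2.79 kb, is high.

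Related RNA helicases with other names were read beside the family. Of 16 bright genes of 18 listed, 10 lay below 0 and 6 above (47.9% of all bright genes lay below), with a median of -0.12. SKIC2, the helicase of the cytoplasmic exosome's partner complex, read 9.76 and 10.10, a difference of 0.35, and ASCC3, a ribosome-rescue helicase, read 9.24 and 8.88, a difference of -0.36 with all 3 rows below 0. These were the only bright ones past 1.25-fold. EIF4A1 and EIF4A2, the paralogous helicases of translation initiation, stood on opposite sides of 0: EIF4A1 was at 0.17 (12.81 and 12.99) and EIF4A2 at -0.30 (11.13 and 10.83). HELZ was at -0.29 on 1 row (13.89 and 13.60). EIF4A1 was named after its value was seen.

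Binding partners of the helicases lay on both sides of 0. Of 25 bright genes of 29 listed, 13 lay below 0 and 12 above, a share of 52.0% below 0 against 47.9% of all bright genes. Their median was -0.06, against 0.01 over all bright genes. IRF3, the factor switched on downstream of RIG-I, was highest at 0.44 (10.64 and 11.08), with all 3 rows above 0. NKRF, a partner of DHX15, was at -0.44 (10.54 and 10.09, with rows at -0.13 and -0.75). PDCD4, an inhibitor of EIF4A, was also at -0.44 (9.60 and 9.16), with both rows below 0. CNOT1, the scaffold that binds DDX6, was at -0.36 (12.63 and 12.27) with all 4 rows below 0. The genes that follow were named after their values were seen. Of the SMN complex, GEMIN4 (-0.25), GEMIN5 (-0.23) and SMN1 (-0.20) lay below 0 with every row, as DDX20 did, while the dim GEMIN2 was at 0.07, and SMN1 has a near-identical copy. Of the bright genes of the tRNA ligase complex, RTCB was at -0.10 and RTRAF at -0.07, closer to 0 than DDX1.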

How the data were processed

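Total RNA of 1 DMSO and 1 clofibrate culture carried Cy3 on 1-colour NimbleGen arrays, per the labels. The values the authors deposited are linear-scale intensities for each transcript row. The submitters' processing notes name RMA, without settings. As RMA usually normalizes between arrays, a general shift would be hidden. Per the file headers, 45031 of 45033 rows summarise 3 probes and positions are on hg18. The deposited series table held the same values.

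Intensities were converted to log2 and averaged over the rows of a gene. Symbols were updated by gene ID through RefSeq (GRCh38.p14), which matched 38916 rows and 54 of the 55 members; members keep the symbol in the files. Promoter sequences are RefSeq's. Like level means 40 equal bins of genes. The members, role lists, other lists and motifs were chosen with earlier results of these data known, and the 1.25-fold and 2 SD bounds and the motifs after the values were seen. Any member could be named; values on both arrays were required for the 6 highest and 6 lowest bright members, the 5 brightest, the sensors, rows of opposite sign over 0.5 apart and 7 fixed genes, and up to 4 genes of each other list. The counting was tested on simulated data. Alternatives were centring, quantile and loess normalization (limma 3.58.1, R 4.3.3), the brightest row, other level filters, other folds, removal of 4 gene models and removal of the span trend. Statistics used scipy 1.17.1 and statsmodels 0.14.6, tables pandas 2.3.3 with numpy 2.4.6, and figures matplotlib 3.10.9, all under Python 3.11.15.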

Additional observations from a re-analysis of the deposited data

How the results depend on the processing

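No paired analysis was possible because the groups hold 1 array each, which also leaves nothing to fit without one of them. Centring, quantile normalization, loess on level and the series table each left 30 of 48 bright members below 0, and DHX36 alone past 1.5-fold. The family median ran from -0.14 (quantile, loess) to -0.10 (span trend removed) over all alternatives. The DDX minus DHX difference of medians, 0.01, was -0.0007 with loess, -0.03 with the span trend removed, and -0.03 without the 4 models DDX12, DHX40P, DDX19-DDX19L and DDX26B. Taking only a gene's brightest row gave 0.0862 (DDX -0.08, DHX -0.17). Counts moved as follows. With all measured members 1 gene, DDX25, was at least 1.5-fold higher, and in the top quartile of level 0 were 1.5-fold lower. With the span trend removed 2 were 1.5-fold lower, DHX36 and DDX27. At 2-fold the count of lower genes was 0, and at 1.25-fold 7 were lower and 2 higher. Of the 25 members for which values on both arrays were required, 3 changed sign with brightest rows (DDX6, DDX12 and DDX17). Outside these 25, DDX18, DDX19B, DDX19-DDX19L, DDX31, DDX52, DHX33 and DHX35 changed sign as well. By brightest rows, 14 of 46 bright members lay above 0. Classing members by the letters of their helicase motif was not run, since no protein sequences were used here. Dim genes had the widest spread.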

Other observations

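These values were looked up after the main results had been seen. Bright members shared a side of 0 on several chromosomes. All 5 on chromosome 16 (DDX19A, DDX19B, DDX19-DDX19L, DDX28 and DHX38) lay above 0, with a median of 0.13 against 0.08 for all bright genes there, and 3 of these have overlapping or neighbouring rows. DDX19B and DDX19-DDX19L had rows of both signs. On chromosome 17, 7 of 8 lay below 0 (DDX5, DDX42, DDX48, DDX52, DHX8, DHX40 and DHX40P), with a median of -0.17 against 0.04 for all bright genes there. DDX52 had rows of both signs, and DHX40P is a pseudogene model. All 3 on chromosome 2 (DDX1, DDX18 and DHX57) lay below 0, with a median of -0.16 against -0.03 for all bright genes there. Rows of DDX18 and DHX57 were of both signs. All 3 on chromosome 10 (DDX21, DDX50 and DHX32) lay below 0, with a median of -0.30 against -0.04. The 8 on chromosome 12 were mixed, 5 above 0 and 3 below. The share of all bright genes on each side was not counted by chromosome.

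Gene models described in the files as similar to family members carry placeholder symbols and were not counted. LOC643635, similar to DDX11, read 9.84 with DMSO and 10.00 with clofibrate. LOC653405, similar to DHX37, read 9.70 and 9.87. The 2 rows of LOC653304, similar to the older DDX26, differed by -0.73 and -0.09, and the row of LOC644303, similar to DDX24, read below the random probes on both arrays.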
